A study of Homo sapiens with 3 samples.

Results

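Regions of TEAD occupancy and of H3K27 acetylation around 6 genes of the hypoxia response, CA9, NDRG1, EGLN3, ADM, BHLHE40 and ANGPTL4, are described here. The genes were named with earlier results of these data known, and the regions were taken by position alone: every region of the 2 deposited peak lists whose summit lay within 50 kb of the start of one of these genes on hg19. This gave 41 of 35241 TEAD regions and 45 of 52667 H3K27ac regions, 86 of 87908 in all. All libraries came from 786-O cells, a clear cell renal carcinoma line that lacks the VHL protein. One library was immunoprecipitated for TEAD and 1 for H3K27ac, and 1 was input chromatin, which gave no peak list here. The labels give no genotype, treatment or time beyond the line itself, grown in serum-containing medium, and they name the antibody only as TEAD. With 1 library per antibody no value below has a replicate check, and intervals cover counting error only.

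Cells adapt to low oxygen through hypoxia-inducible factors (HIF), dimers of an oxygen-regulated alpha subunit and the constant partner ARNT, which bind short elements with a CGTG core. VHL marks hydroxylated HIF alpha subunits for destruction, so cells without VHL keep the pathway on in normal oxygen, a defining feature of clear cell renal carcinoma. TEAD factors bind DNA for the Hippo pathway co-activators YAP and TAZ, and H3K27ac marks active promoters and enhancers. HIF itself was not profiled, nor was expression, so the values describe TEAD and acetylation at these genes and not their response to HIF.

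The bases before the gene starts are shown because the regions nearest the starts are described for each gene. RefSeq (GRCh38.p14) held promoters for 5 of the 6 genes by symbol, all but NDRG1. The 250 bases before each start are printed 5′ to 3′ on the strand of the gene, and capitals mark ACGTG or GCGTG, the core of HIF elements, read on either strand. The palindrome CACGTG, an E-box, holds 2 overlapping ACGTG matches.
CA9 (chr9:35673678-35673927, plus strand): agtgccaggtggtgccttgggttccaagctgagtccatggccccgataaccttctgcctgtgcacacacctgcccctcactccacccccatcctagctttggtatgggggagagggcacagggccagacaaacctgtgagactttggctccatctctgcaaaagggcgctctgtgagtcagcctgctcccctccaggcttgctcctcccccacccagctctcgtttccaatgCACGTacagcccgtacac
EGLN3 (chr14:33951075-33951324, minus strand): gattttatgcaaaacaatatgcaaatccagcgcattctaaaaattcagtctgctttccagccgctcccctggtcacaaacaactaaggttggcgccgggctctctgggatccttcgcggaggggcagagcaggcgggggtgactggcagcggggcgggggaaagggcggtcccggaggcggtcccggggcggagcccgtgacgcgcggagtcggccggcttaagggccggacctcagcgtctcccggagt
ADM (chr11:10304823-10305072, plus strand): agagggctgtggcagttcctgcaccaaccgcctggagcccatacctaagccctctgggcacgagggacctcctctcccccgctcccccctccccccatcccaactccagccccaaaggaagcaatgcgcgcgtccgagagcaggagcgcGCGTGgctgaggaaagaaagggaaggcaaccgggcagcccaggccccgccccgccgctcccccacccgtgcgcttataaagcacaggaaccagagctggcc
BHLHE40 (chr3:4979187-4979436, plus strand): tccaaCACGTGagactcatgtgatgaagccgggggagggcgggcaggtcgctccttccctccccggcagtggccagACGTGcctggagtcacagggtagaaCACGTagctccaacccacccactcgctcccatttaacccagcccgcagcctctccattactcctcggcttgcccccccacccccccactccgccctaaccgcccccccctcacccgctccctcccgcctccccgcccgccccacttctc
ANGPTL4 (chr19:8363905-8364154, plus strand): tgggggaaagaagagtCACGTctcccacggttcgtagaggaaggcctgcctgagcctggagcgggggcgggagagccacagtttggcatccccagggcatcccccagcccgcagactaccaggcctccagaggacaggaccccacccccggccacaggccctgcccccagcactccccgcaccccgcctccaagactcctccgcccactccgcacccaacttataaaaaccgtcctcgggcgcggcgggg

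CA9 had ACGTG on the opposite strand 18 to 14 bases before the start. BHLHE40 held such letters at 3 places, one of them the E-box 245 to 240 bases before the start. ANGPTL4 had 1 ACGTG match, ADM 1 GCGTG match, and EGLN3 neither. Over all 35116 promoters of this length, ACGTG occurred in 18.5% and GCGTG in 32.2%, with ACGTG or GCGTG in 43.2%. The letters GGAATG, the core bound by TEAD, were searched on both strands as well and stood in none of the 5 windows, against 11.9% of all promoters. These matches are letters in a reference sequence of another build than the peaks. The promoter coordinates therefore cannot be set on the regions below.

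All 6 loci held TEAD and H3K27ac regions, and they differed widely in number and strength. TEAD regions numbered 12 at ADM, 10 at ANGPTL4, 7 at BHLHE40, 5 each at CA9 and NDRG1 and 2 at EGLN3. H3K27ac regions numbered 11 at EGLN3, 9 at ADM, 8 at CA9, 7 at BHLHE40, 6 at ANGPTL4 and 4 at NDRG1. At least 1 TEAD summit stood at 6 of 6 loci, beside 82.3% of the 13944 genome tiles of 100 kb that hold an H3K27ac summit, so the presence of TEAD sets these genes little apart. As many TEAD summits as at ADM occurred in 0.509% of those tiles, as at ANGPTL4 in 1.398%, as at BHLHE40 in 5.24% and as at CA9 or NDRG1 in 13.7%. At least the 2 of EGLN3 occurred in 56.3%. Tiles are not centred on gene starts. In windows centred on every H3K27ac summit, which lie in denser stretches, the share with at least 12 TEAD summits was 2.28% and with at least 10 it was 5.14%.

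**Figure D1:**
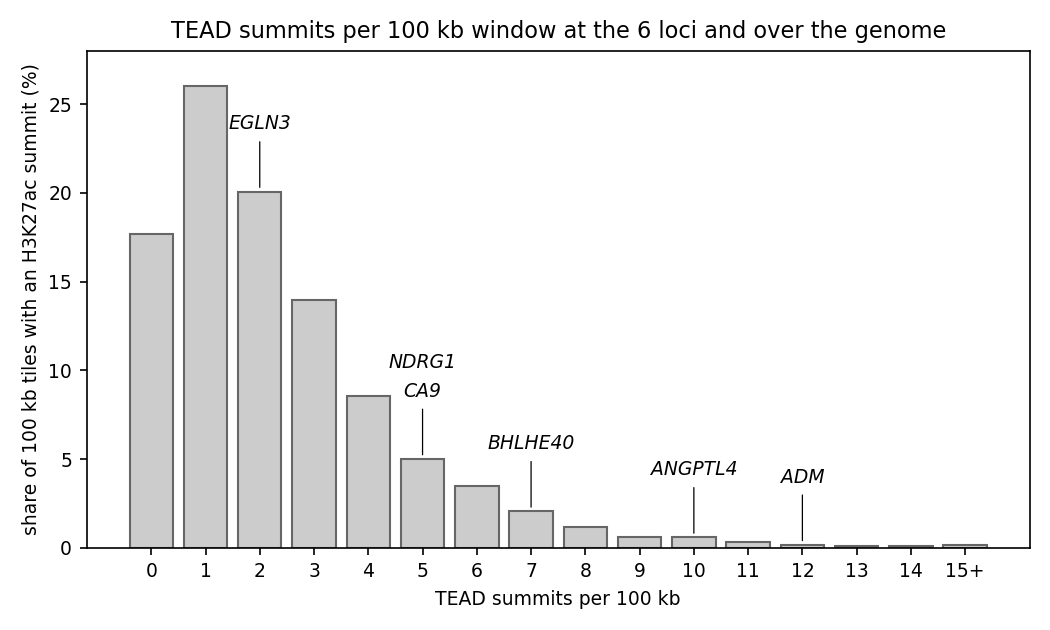
Share of 100 kb genome tiles with an H3K27ac summit (vertical axis, %) by the number of TEAD summits they hold (horizontal axis), with the 6 gene windows of the same length placed at their own number. EGLN3 sits at 2 summits, the median of the tiles, and ADM at 12.

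The fold enrichment of a region is the authors' value at its summit over the peak caller's local background. Counting intervals of folds cover the error of the summit reads and hold that background fixed. At the 6 loci the median TEAD fold was 7.54 (range 3.07 to 35.5), against 7.14 in the whole TEAD list, and 20 of the 41 lay below that list median. At least 10-fold was reached by 13 of 41 TEAD regions, a share of 31.7% (exact 95% interval 18.1 to 48.1%), beside 30.4% of all TEAD regions. ANGPTL4 held 6 of these 13, ADM and BHLHE40 3 each and NDRG1 1, and none of the regions at CA9 or EGLN3 reached that level. The median H3K27ac fold was 5.99 (range 2.87 to 31.2) at the loci and 6.54 in the whole H3K27ac list, and 15 of 45 regions reached 10-fold, beside 30.5% of all. By medians and 10-fold shares the 6 loci as a group were thus close to both lists, and the contrasts lay between the genes. The upper quartile of H3K27ac fold was higher at the loci, 16.1 against 11.5, and the lower quartile was 4.30 against 4.61.

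H3K27ac was shared by at least 1 bp at 35 of the 41 sites of TEAD, 85.4% (exact 95% interval 70.8 to 94.4%), beside 68.4% of all TEAD regions. The interval counts regions as independent, which regions of 1 locus are not. It does not measure the spread between loci, so no excess over the whole list is drawn from it. The split between genes was sharp. ANGPTL4 had 4 of 10 in H3K27ac, and the other 5 loci had 31 of 31. Among tiles with at least 5 TEAD summits, 33.9% had every TEAD region in H3K27ac. EGLN3, with 2, falls outside that class, and the tiles were not matched to the loci for H3K27ac cover. The TEAD summit itself lay inside the acetylated region for 29 of 41, beside 55.3% of all. Another 6 touched H3K27ac with the summit outside it, beside 13.1% of all. Those 6 had folds of 7.54 to 18.0 and lay at ANGPTL4 (3), NDRG1, EGLN3 and ADM.

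**Figure D2:**
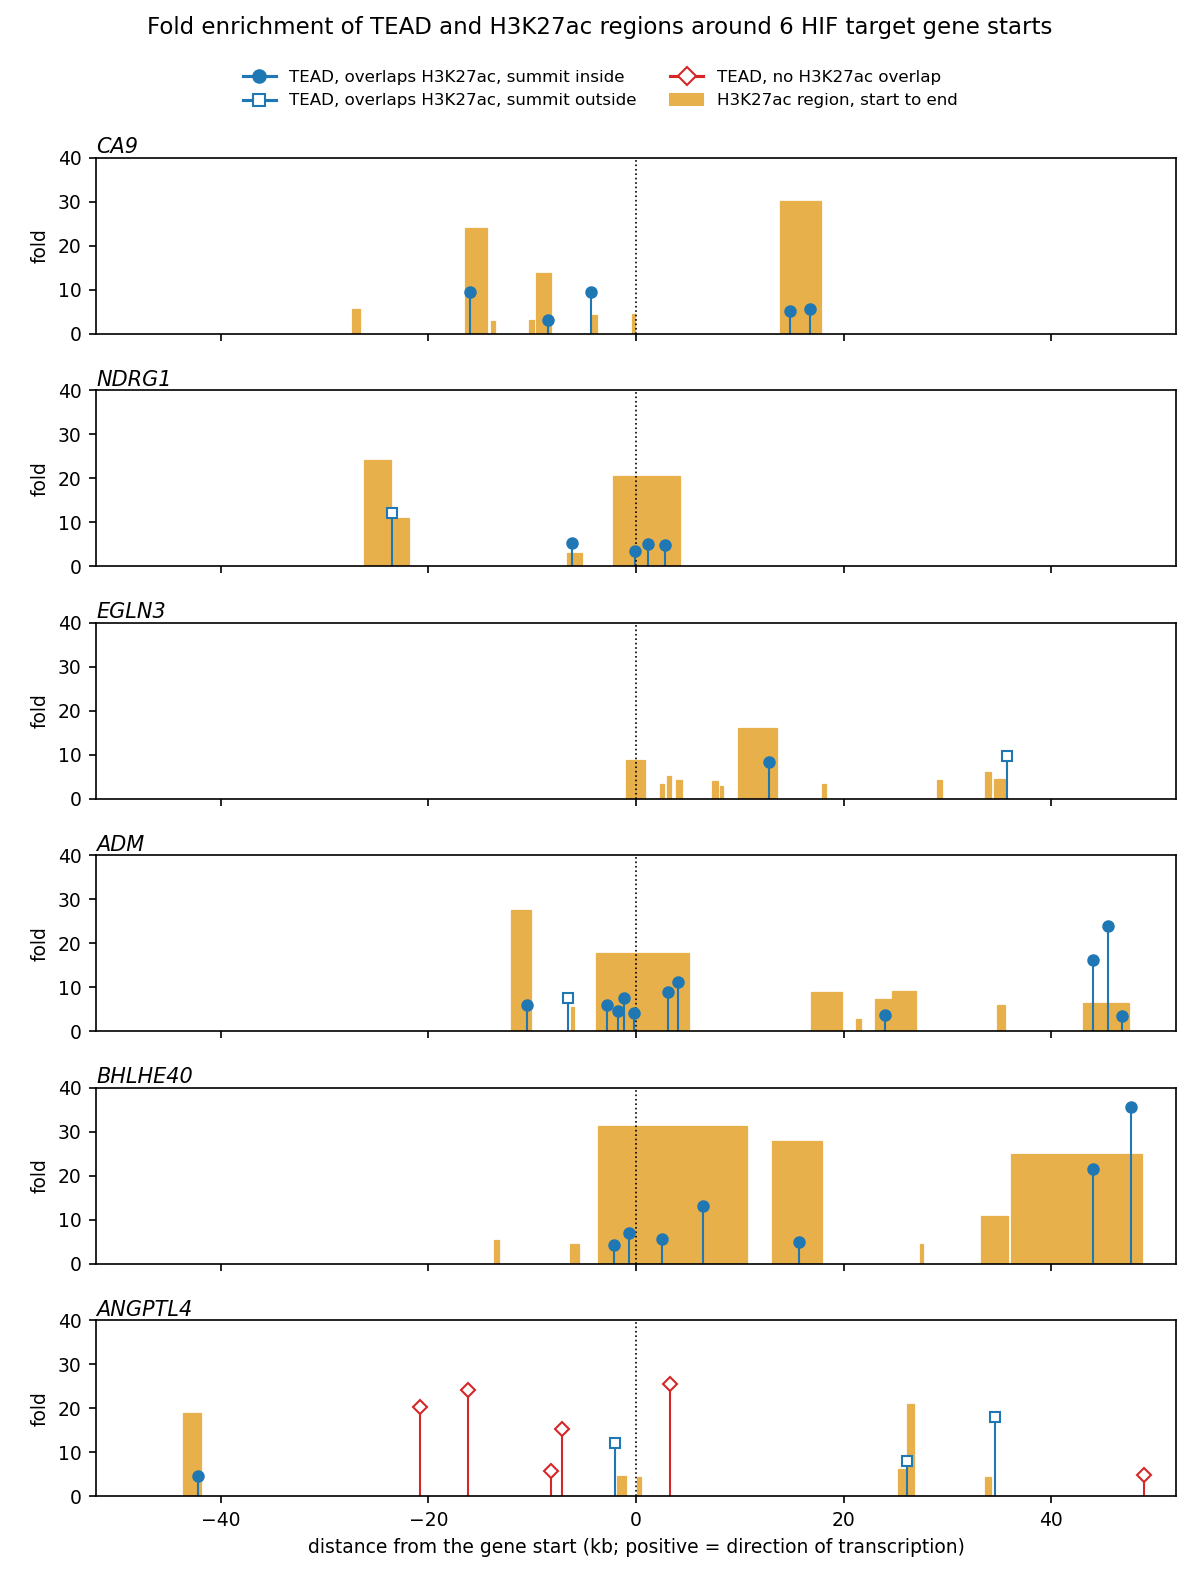
Each panel shows 1 gene, with the distance from its start in kb along the direction of transcription (horizontal axis) and the fold enrichment at the summit (vertical axis). Orange blocks are H3K27ac regions from start to end, and stems are TEAD summits, filled where inside H3K27ac, open squares where the region touches H3K27ac with its summit outside, red diamonds where it touches none. All 6 red diamonds are at ANGPTL4, and the widest block, 14.4 kb, covers the start of BHLHE40.

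EGLN3 encodes PHD3, a prolyl hydroxylase that marks HIF alpha subunits for VHL and is itself induced by HIF, a feedback arm of the pathway. It had the fewest TEAD regions and the most H3K27ac regions. All 13 summits lay downstream of the start in the direction of transcription, and none lay within 50 kb upstream. The start itself was covered by an H3K27ac region on chromosome 14 from 34419454 to 34421255, of 8.90-fold (counting interval 6.20 to 12.4), which touched no TEAD region. The strongest acetylation lay 12.3 kb downstream, from 34406688 to 34410472, at 16.1-fold (12.3 to 20.9). That region contained the TEAD region nearest the start, from 34407269 to 34408041, with 8.24-fold (5.61 to 11.7). The other TEAD region lay 35.7 kb downstream at 9.66-fold (6.58 to 13.7), with its summit just outside an H3K27ac region of 4.49-fold. The 2 TEAD intervals overlap, and the order of the 2 regions is not resolved. Both had 29 summit reads. Their folds differ through the recovered background, 2.64 reads at the nearer region and 2.10 at the other, which the intervals hold fixed. Of the 11 H3K27ac regions 7 were below 5-fold, with widths of 299 to 1053 bp. The 11 formed a chain of 36.5 kb when joined over gaps of up to 12.5 kb.

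BHLHE40 encodes DEC1, a basic helix-loop-helix repressor of the circadian and hypoxia responses that binds E-boxes such as the one in its own promoter above. It carried the most acetylation of the 6. H3K27ac covered 36.3 kb of its 100 kb window, an amount reached by 0.667% of tiles. Its start lay inside an H3K27ac region of 14370 bp on chromosome 3 from 5017425 to 5031794, at 31.2-fold (26.2 to 36.9). That region ranked 47 of 52667 by width and 324 by fold. A second one of 12709 bp, from 5057160 to 5069868, reached 24.98-fold (20.2 to 30.5) and ranked 81 by width, and another, from 5034206 to 5039017, reached 27.8-fold (23.2 to 33.1). The joined domain spanned 62.5 kb and ranked 31 of 22587 domains by summed fold times width.

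The 7 TEAD regions of BHLHE40 all had their summits inside H3K27ac. The highest fold of all 41 TEAD regions was there, 47.7 kb downstream of the start at positions 5067982 to 5069143 of chromosome 3, where 184 summit reads gave 35.5-fold (30.6 to 41.0). It ranked 911 of 35241 and shared its acetylated region with a TEAD region of 21.5-fold (17.2 to 26.7) at 44.0 kb. Over the gene start TEAD was broad and modest. The region covering the start, from 5019783 to 5022262, was 2480 bp wide, rank 15 in the whole list by width, at 6.996-fold (5.03 to 9.50). The next wide one, of 2026 bp from 5027063 to 5029088, lay 6.41 kb downstream at 13.0-fold (10.3 to 16.3). These 2 were the only TEAD regions of the 41 with at least 2000 bp, a width reached by 0.114% of all TEAD regions. The remaining 3 were 4.19- to 5.59-fold. The interval of the strongest region does not overlap that of any other TEAD region at this gene, so the distal site stood above the promoter sites beyond counting error. It does overlap the intervals of 2 TEAD regions at ANGPTL4.

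CA9 encodes carbonic anhydrase IX, a cell-surface enzyme that helps tumour cells control pH in low oxygen. Its start was nearly bare. The nearest H3K27ac region, on chromosome 9 from 35673528 to 35673864, ended 51 bp before the start and had 4.43-fold (2.396 to 7.64) from 11 summit reads. It was 337 bp wide and touched no TEAD region. The strongest H3K27ac region of the window, from 35687740 to 35691715, lay 17.0 kb downstream at 30.1-fold (24.96 to 36.0), rank 411 of 52667. The next coding gene on that side in the RefSeq order is TPM2, and the files do not assign a region to a gene.

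No TEAD region at CA9 reached 10-fold. The nearest to the start, from 35669391 to 35669859, had its summit 4.29 kb upstream, with 32 reads and 9.56-fold (6.63 to 13.4), on a weak H3K27ac region of 4.22-fold. Another upstream region, 15997 bp away from 35657595 to 35658660, lay in an H3K27ac region of 23.9-fold (19.2 to 29.4). It had 68 reads and 9.43-fold (7.36 to 11.9) over a recovered background of 6.31 reads, the highest behind any of the 41. The 2 TEAD regions inside the strong downstream H3K27ac region were 5.25- and 5.55-fold. The weakest TEAD region of all 6 loci, 3.07-fold (1.804 to 4.94), also lay at this gene, in an H3K27ac region of 13.9-fold. The interval of the weakest lies below those of the 2 highest TEAD regions at CA9, and all other pairs of intervals there overlap.

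ADM encodes adrenomedullin, a secreted peptide that widens blood vessels. It had the most TEAD regions, 6 of them inside 1 H3K27ac region of 9019 bp that covered the start on chromosome 11 from 10322765 to 10331783. That acetylated region had 17.8-fold (14.4 to 21.8) and ranked 298 by width. From upstream to downstream its 6 TEAD regions had folds of 6.04, 4.65, 7.62, 4.204, 8.99 and 11.2, with summits from 2.83 kb upstream to 4.09 kb downstream of the start. The fourth of these covered the start at 4.204-fold (2.47 to 6.76). The strongest of the 6, from 10330467 to 10331123, had 11.2-fold (8.16 to 15.1), and its interval lies above that of the one at the start. The occupancy around ADM was thus a row of moderate sites and not 1 peak.

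The strongest TEAD region of the ADM window lay far from the gene, 45.5 kb downstream from 10371872 to 10372509, with 123 reads and 23.8-fold (19.8 to 28.4). A neighbour from 10370329 to 10370912 had 16.2-fold (11.99 to 21.4). Both stood in an H3K27ac region of only 6.46-fold (4.84 to 8.45) over 4351 bp. The strongest H3K27ac region, 27.5-fold (22.5 to 33.2) at 11.2 kb upstream from 10314616 to 10316540, held a TEAD region of 5.97-fold (3.88 to 8.84). The order of acetylation and the order of TEAD fold thus differed within this window. The joined domain around ADM spanned 59.5 kb, held 12 TEAD summits and ranked 373 of 22587. It and the BHLHE40 domain were the only ones at the 6 loci among the 863 large domains, which are the ones past slope 1 on the curve of scaled signal against scaled rank.

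ANGPTL4 encodes a secreted inhibitor of lipoprotein lipase that responds to hypoxia and to lipid-sensing receptors. None of its 6 TEAD regions of at least 10-fold had the summit inside H3K27ac, and 4 of them touched no H3K27ac region. The highest TEAD value was 25.5-fold (19.8 to 32.4) from 65 reads, 3.32 kb downstream of the start on chromosome 19 from 8431986 to 8432641, and the nearest H3K27ac region was 2467 bp away. Upstream, a region from 8412536 to 8413056 had 57 reads and 24.1-fold (18.4 to 31.1), and a region from 8408033 to 8408488 had 46 reads and 20.3-fold (14.9 to 26.9). Their nearest H3K27ac regions were 14120 and 18688 bp away. A region 7.14 kb upstream, from 8421650 to 8422131, had 55 reads and 15.4-fold (11.7 to 19.9), also without H3K27ac. The intervals of these 4 overlap in part, so their order is not resolved. The other 2 TEAD regions without H3K27ac were weak, at 5.74- and 4.73-fold.

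At least 6 TEAD regions without H3K27ac, as at ANGPTL4, occurred in 0.108% of tiles with an H3K27ac summit and in 3.59% of the 195 such tiles with at least 10 TEAD summits. Of the 13 TEAD regions of at least 10-fold at the 6 loci 4 had no H3K27ac, all at ANGPTL4, beside 24.5% of all TEAD regions of that level. The recovered background at the 3 strongest was 1.32 to 1.59 reads, near the floor of 1.297, and a low background raises a fold. In reads, which do not depend on it, these 3 were among the 11.4 to 19.99% of highest summits of the TEAD list. Absence of a called H3K27ac peak at this depth does not show that the mark was absent.

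The ANGPTL4 start lay in a gap between 2 weak H3K27ac regions. One, from 8427177 to 8428067, had 4.56-fold (2.80 to 7.07), and the other began 56 bp after the start and had 4.45-fold (2.65 to 7.06). The TEAD region nearest the start, from 8426787 to 8427430, had its summit 1995 bp upstream, with 54 reads and 12.2-fold (9.22 to 15.9). It touched the first of those regions with its summit outside. H3K27ac covered 5.03 kb of the window, the least of the 6. That is still above the median of 3.22 kb for tiles with an H3K27ac summit, and 34.4% of those tiles held as much. The strongest acetylation, 21.0-fold (17.3 to 25.3) in a region of 666 bp, lay 26.5 kb downstream from 8455096 to 8455761. A TEAD region of 7.96-fold (5.67 to 10.9) bridged it and the region before it, with its summit in the gap between them. Another TEAD region, 34.6 kb downstream from 8463170 to 8463821, had 80 reads and 18.0-fold (14.3 to 22.3) at the edge of an H3K27ac region of 4.30-fold (2.32 to 7.40). The only TEAD summit of this window inside H3K27ac was 4.59-fold, in a region of 19.0-fold 42.2 kb upstream. Coding genes next to ANGPTL4 in the RefSeq order are KANK3 and RAB11B, and the windows reach beyond the gene itself.

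**Figure D3:**
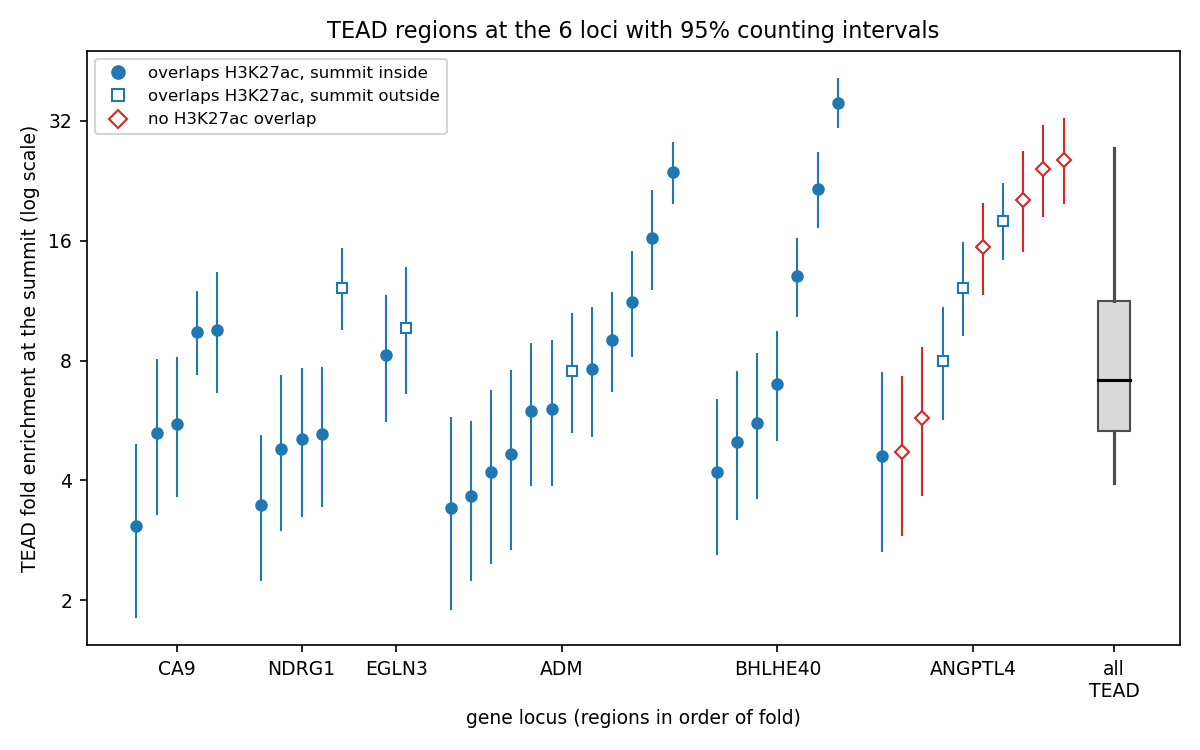
TEAD fold enrichment at the summit (vertical axis, log scale) for each of the 41 regions, by gene, with 95% counting intervals, and the whole TEAD list on the right as a box (quartiles and median) with whiskers to the 5th and 95th percentile. The BHLHE40 region of 35.5-fold is the highest, and the 4 strongest ANGPTL4 diamonds, without H3K27ac, lie at 15.4- to 25.5-fold.

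NDRG1 encodes a stress-responsive cytoplasmic protein strongly induced by hypoxia. It showed the opposite picture at its start, with much acetylation and weak TEAD. An H3K27ac region of 6400 bp covered the start on chromosome 8 from 134305352 to 134311751, with 123 reads and 20.5-fold (17.0 to 24.4), rank 809 by width. Its 3 TEAD regions had 3.48-, 5.09- and 4.80-fold. The one over the start, from 134309284 to 134310135, had its summit 73 bp from the start and 3.48-fold (2.24 to 5.19). It had 22 reads over a recovered background of 5.61.

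The strong sites of the NDRG1 window lay upstream. A pair of H3K27ac regions stood there, from 134331451 to 134332899 at 10.99-fold (8.63 to 13.8) and from 134333101 to 134335772 at 24.1-fold (19.8 to 29.0). The strongest TEAD region of this gene bridged them, 23.5 kb upstream from 134332506 to 134333412, with its summit in the gap, 71 reads and 12.2-fold (9.55 to 15.3). Its interval lies above those of the other 4 TEAD regions. The interval of the stronger H3K27ac region overlaps that of the region at the start. The median recovered background of the TEAD regions at NDRG1 was 3.77 reads, against 3.23 for TEAD regions on chromosome 8 and 2.45 in the whole list. This was not particular to NDRG1. At BHLHE40 the median was 3.77, against 2.64 on its chromosome, and at CA9 3.51 against 2.76. ADM and ANGPTL4 also lay above their chromosomes, and EGLN3 lay below. Copy number was not measured, and its part in these folds was not tested.

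The starts themselves differed. At NDRG1, ADM and BHLHE40 the start lay inside both a TEAD region and an H3K27ac region of at least 6400 bp. At EGLN3 it lay in H3K27ac of 1802 bp alone, and at CA9 and ANGPTL4 in neither, 51 and 56 bp from the nearest H3K27ac region. At CA9 and ANGPTL4 this rests on the exact start used, which was not checked against an hg19 annotation. The 3 TEAD regions on a start had 3.48- to 6.996-fold, below the whole-list median of 7.14. Wide acetylation is counted here from 4000 bp, a cut that leaves out regions of 3976 bp at CA9 and 3785 bp at EGLN3. H3K27ac regions of at least 4000 bp numbered 6 of 45, beside 5.27% of all, and stood at BHLHE40 (3), ADM (2) and NDRG1 (1). All 6 touched TEAD, as did 94.3% of all H3K27ac regions of that width. Over all widths 23 of the 45 touched TEAD, beside 41.7% of all.

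**Figure D4:**
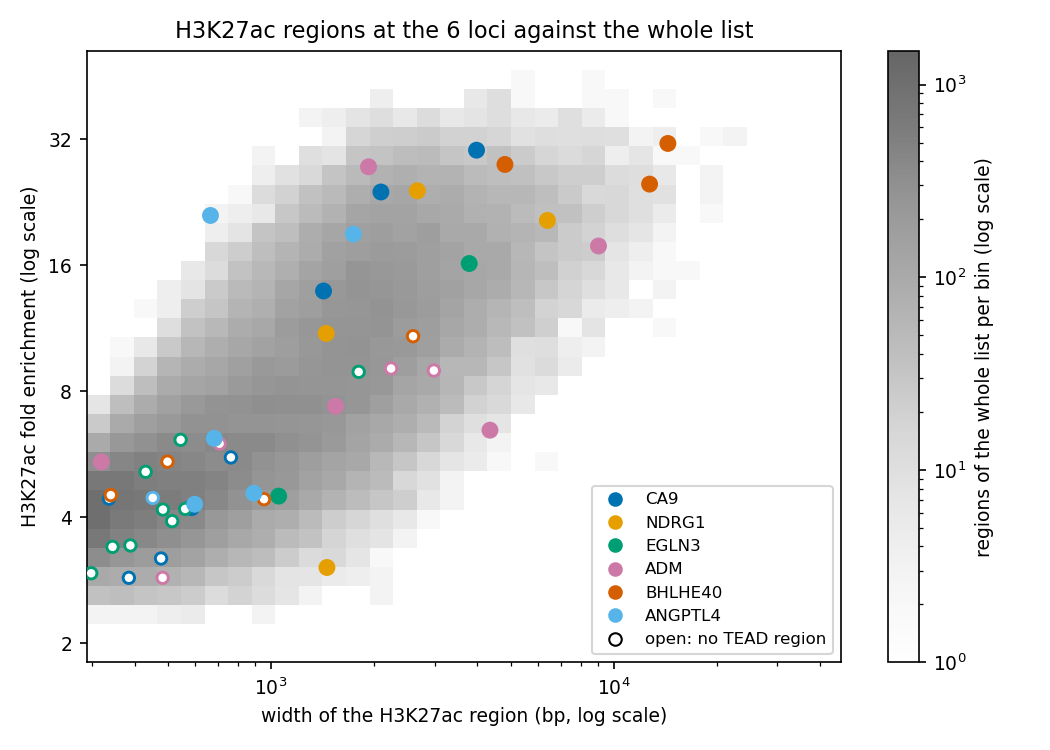
Width in bp (horizontal axis, log scale) and fold enrichment (vertical axis, log scale) of the 45 H3K27ac regions, coloured by gene, filled where a TEAD region touches them, over the density of all 52667 regions in grey. The 2 widest of the 45, BHLHE40 regions of 14370 and 12709 bp, lie toward the right, and the narrow EGLN3 regions at the lower left are mostly open.

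TEAD values were not highest at the starts. The 15 TEAD regions within 5 kb of a start had a median of 6.04-fold (range 3.48 to 25.5), the 13 from 5 to 20 kb had 5.97-fold (3.07 to 24.1) and the 13 beyond 20 kb had 12.2-fold (3.42 to 35.5). Ranges overlap almost fully, and regions of a locus share a source, so this is a description of 41 regions. The summits lay upstream in 20 cases and downstream in 21. Just inside the limit of 50 kb was an ANGPTL4 TEAD region at 48.9 kb with 4.73-fold, and the first one outside it was at CA9, 54.2 kb downstream, with 40.5-fold (34.3 to 47.4). That value is above all 41, though its interval overlaps that of the highest of them, and it is above every TEAD value at CA9 with no overlap of intervals, so the picture at CA9 depends on the limit. For H3K27ac the last inside was at 44.7 kb (ADM, 6.46-fold) and the first outside at 55.9 kb (ANGPTL4, 6.06-fold).

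By position, the median TEAD fold at the 6 loci was lowest where the summit lay inside H3K27ac. The highest single fold, 35.5 at BHLHE40, was also in that class. The 29 regions with the summit inside had a median of 5.59-fold, the 6 touching H3K27ac with the summit outside 10.9-fold and the 6 without H3K27ac 17.8-fold. In the whole list these medians were 7.15, 8.42 and 6.83. All 6 without H3K27ac came from ANGPTL4, as did 3 of the 6 with the summit outside. Class and gene therefore cannot be told apart. TEAD summits inside H3K27ac lay a median of 716 bp (range 119 to 5857 bp) from the H3K27ac summit of the same region, against 400 bp in the whole list. The 3 wide regions at the starts of NDRG1, ADM and BHLHE40 give room for such distances, and their part was not tested. Within 150 bp lay 1 of the 29, the CA9 region at 4.29 kb, beside 11.2% of all TEAD summits inside H3K27ac.

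**Figure D5:**
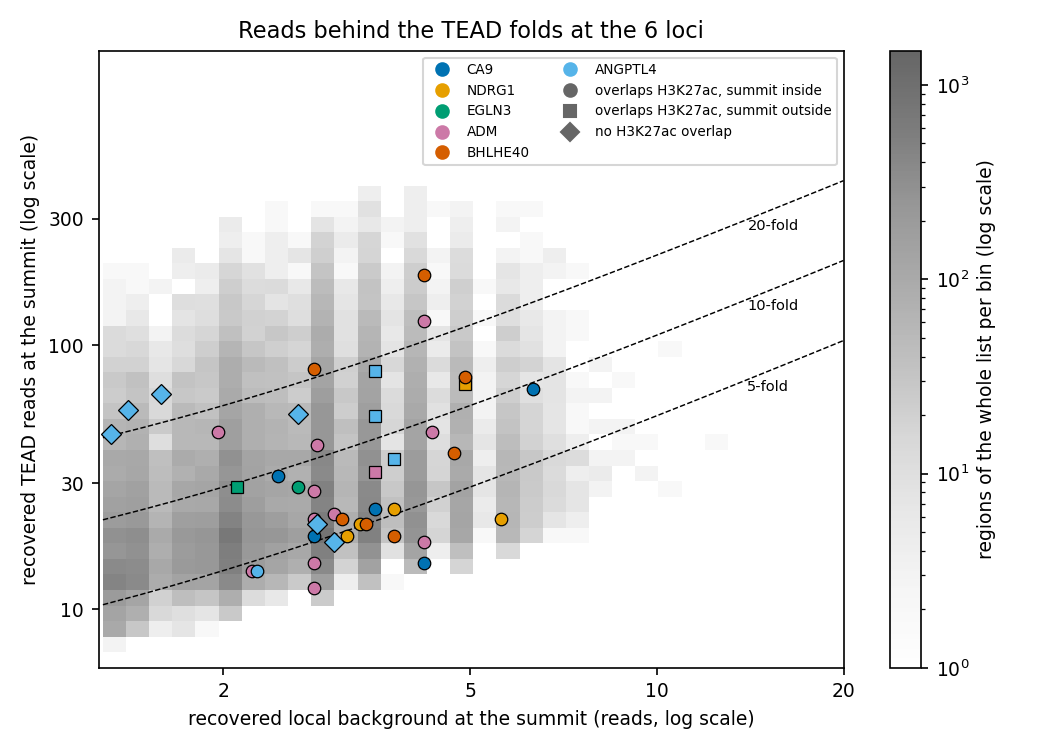
Recovered reads at the TEAD summit (vertical axis, log scale) against the recovered local background (horizontal axis, reads, log scale) for the 41 regions, coloured by gene with the symbol giving the H3K27ac class, over the density of the whole list in grey; dashed lines mark equal fold. The 3 ANGPTL4 diamonds at the left have backgrounds of 1.32 to 1.59 reads with 46 to 65 reads at the summit.

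Summits of the 41 TEAD regions held a median of 29 reads (range 12 to 184) and those of the 45 H3K27ac regions 25 reads (9 to 135), against 24 in each whole list. At such depth the weaker folds carry wide intervals, and the words strongest and highest refer to the deposited fold itself, also where intervals overlap.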

How the data were processed

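The authors deposited 1 peak list each for TEAD and H3K27ac, every list from a single library; the input library had no list here. Fastp, MACS2 and Bowtie2 2.4.5 are named, with build hg19 but neither roles nor parameters, per the submitters' processing notes. Each deposited row holds a fold enrichment (ratio) at the summit, a −log10 p and −log10 q, the summit's distance from the region start, and a whole-number score that was not used. Chromosome Y was left out (123 TEAD and 183 H3K27ac regions). Distances were signed by the gene's strand, from RefSeq or, for NDRG1, textbook knowledge.

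Reads at the summit and the local background were recovered from the fold and p: a whole-number pileup k was sought whose background b, set by fold = (k + 1)/(b + 1), gives an upper Poisson tail beyond k within 0.002 of the −log10 p. This held for 100% of regions. Pairs simulated from the same formula checked the algebra only, not whether the recovered values are the real reads and background. Which control was used is not stated. Intervals are exact 95% Poisson (folds) or binomial (shares) ones, and reads carry no molecular identifiers. Those of folds vary the summit reads and take the background as known. Those of shares count regions as independent. Python 3.11.15, pandas 2.3.3, numpy 2.4.6, scipy 1.17.1 and matplotlib 3.10.9 were used.

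No test was run, since each antibody had 1 library. Members and thresholds were chosen with earlier results of these data known. The strongest region of each kind and the one nearest each start were described in full. The gene tables are on GRCh38, so other HIF targets, HIF subunits and TEAD genes were not placed on hg19, and motifs at TEAD summits were not searched.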

Additional observations from a re-analysis of the deposited data

How the results depend on the processing

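Of 38 alternatives, 20 planned and 18 chosen after seeing the data (each locus left out in turn), 28 left the value within 1.5 times (counts), its 95% counting interval (shares) or 10% (medians, which have no replicate spread; this limit was chosen after seeing the data). The limit for shares leaves out the spread between loci. The share of TEAD regions overlapping H3K27ac, 85.4%, was 67.7% for regions of at least 5-fold in both lists. It was 70.7% with the summit inside and 100% without ANGPTL4. The median TEAD fold, 7.54, was 6.04 with 25 kb on each side and 6.04 without ANGPTL4. The median H3K27ac fold, 5.99, was 8.93 at a −log10 q of at least 5, 6.91 without EGLN3 and 5.28 without ADM. H3K27ac regions numbered 71 with 100 kb on each side of the start and 27 at 5-fold or more, against 45. ANGPTL4 against the other 5 loci, 4 of 10 and 31 of 31 TEAD regions in H3K27ac, gave 3 of 10 and 26 of 27 at a −log10 q of at least 5, 1 of 8 and 20 of 23 at 5-fold or more, 1 of 10 and 28 of 31 with the summit inside, and 5 of 14 and 45 of 47 with 100 kb on each side. No paired analysis was possible because each antibody had 1 library. Regions under the caller's threshold are not seen at this depth.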
